A study of Mus musculus with 18 samples.

Results

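The comparison described here sets the RNA of hematopoietic stem cells (HSCs) from Mettl3-deficient mice beside that of wild-type mice, before any selection for methylated RNA. Of 23038 genes listed for both genotypes, 6295 (27.3%) had a mean of at least 10 RPKM (read density, corrected for gene length and library depth) over the 6 columns of the series and were compared. Each was compared by the log2 ratio of its Mettl3-deficient to its wild-type input level, with 1 RPKM added to both. Added RPKM makes the fold change of a low gene smaller than the ratio of its levels, and every fold change below is on this scale.

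All animals were C57BL/6 mice, and the labels give all of them the same 5 intraperitoneal injections of 10 µg pIpC (polyinosinic-polycytidylic acid, a double-stranded RNA mimic), every other day, with the cells taken 10 days after the last. The wild-type group is labelled only as wild-type. The Mettl3-deficient group carried floxed Mettl3 alleles and Mx1-cre, a Cre recombinase under an interferon-inducible promoter that is active in blood cells and in other tissues. HSCs were sorted from hindlimb marrow as Lineage-, Sca1+, cKit+, CD150+ and CD48-, 3000 cells a sample. Their poly(A)+ RNA was divided into an input, an m6A-tagged fraction that bound an antibody to N6-methyladenosine and an antibody-unbound fraction. The input samples number 3 per genotype, of 18 samples in all, and the series describes them as biological replicates.

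METTL3 is the catalytic subunit of the complex that writes N6-methyladenosine (m6A) on messenger RNA, with METTL14 as its partner and WTAP and other proteins as regulatory subunits. Reader proteins such as YTHDF2, which directs methylated transcripts to decay, and YTHDC1, a nuclear reader, recognise the mark. HSCs lie at the top of the blood hierarchy, divide rarely and give rise to erythroid, megakaryocytic, myeloid and lymphoid cells.

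Each deposited value is the mean of 3 libraries, so most genes have no spread between replicates and their differences carry no test. Library totals could be recovered from the decimals of the deposited values. They were 37215254, 33408154 and 28332765 reads for the wild-type inputs and 30064242, 22083960 and 9421766 reads for the Mettl3-deficient inputs. For genes with few reads, the reads of single libraries could be recovered as well, and these are given where they exist, in order of library depth, an order that bears no relation to the replicate number.

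Mettl3 (chr14:52294841-52308741 in GRCm38.p6) had 36.4 RPKM in the wild-type input and 19.6 RPKM in the Mettl3-deficient input, a log2 ratio of −0.86. Its level was also lower in the unbound fraction, 33.2 against 11.2 RPKM, and in the m6A-tagged fraction, 36.1 against 17.4 RPKM. The labels do not say which part of the gene is deleted, and reads outside that part would still be counted. Of the 9 genes of the writer complex, Mettl3 and Mettl16, a separate m6A methyltransferase, reached the minimum, and Mettl16 had 28.1 and 30.7 RPKM. Below it, Mettl14 had 9.66 and 6.19 RPKM, Wtap 11.97 and 6.16 RPKM, Virma 9.81 and 9.43 RPKM, Zc3h13 11.2 and 11.7 RPKM, Cbll1 9.16 and 10.9 RPKM, Rbm15 3.44 and 6.81 RPKM and Rbm15b 3.81 and 1.23 RPKM in the wild-type and Mettl3-deficient inputs. Among 6 compared readers, 1 was 2-fold higher (16.7%, beside 2.38% of all genes) and none lower. This was Ythdf2, with 32.4 RPKM in the wild-type input against 66.7 RPKM. Ythdc1 followed with 29.2 and 40.7 RPKM, and the log2 ratios of Hnrnpa2b1, Hnrnpc, Ythdf1 and Ythdf3 lay between −0.21 and 0.39.

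Over all 6295 genes the inputs were close. The log2 ratios had a median of −0.05 and an SD of 0.70 across genes, and 4788 genes (76.1%) were within 1.5-fold of each other. In Mettl3-deficient input, 150 genes (2.38%) were at least 2-fold higher and 420 (6.67%) at least 2-fold lower. At 8-fold, 7 genes were higher and 51 lower, so the low side reached further. Lower genes made up 73.7% of the 2-fold genes in the deposited values, 61.7% after median-ratio scaling of the columns and 68.1% after upper-quartile scaling. Over all genes the median ratio was then 0.07 and 0.02. The genes just inside the 2-fold limits had log2 ratios of 1.002 and −1.0005, those just outside 0.9987 and −0.9996.

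**Figure D1:**
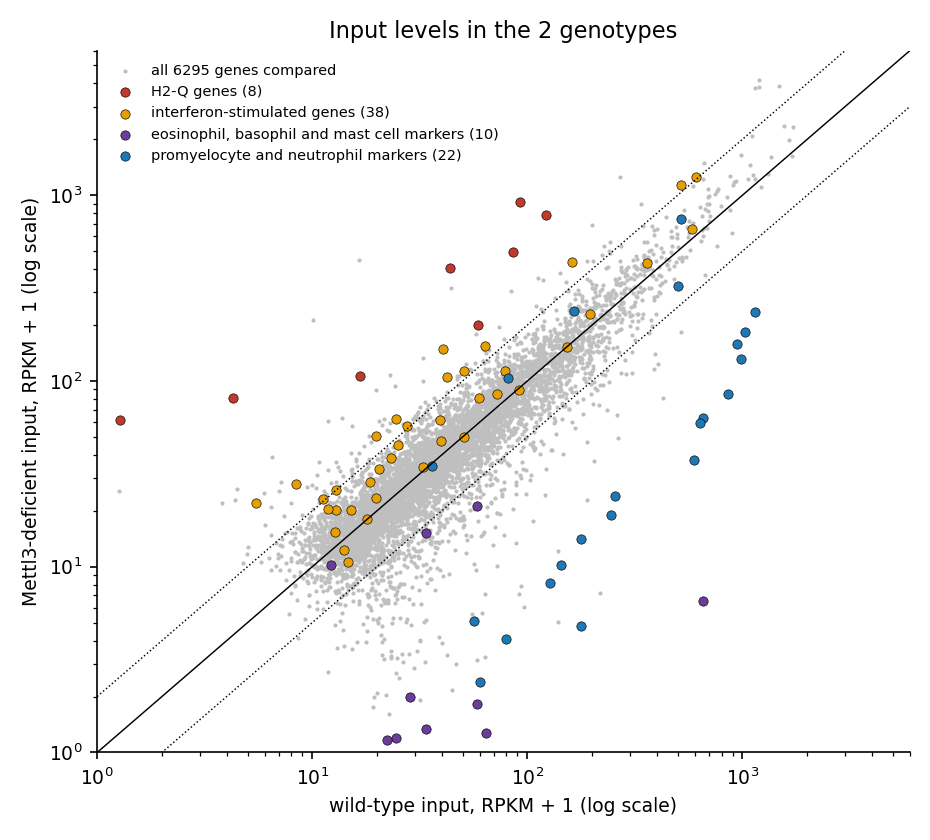
Input level of each of the 6295 compared genes in wild-type HSCs (x axis) and Mettl3-deficient HSCs (y axis), in RPKM + 1 on log axes; the solid line marks equal levels, the dotted lines 2-fold differences, and colours mark 4 groups of genes. The 8 H2-Q genes lie above the upper dotted line, and most granulocyte markers lie far below the lower one.

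Many of the genes with the most negative ratios encode granule proteins of eosinophils and neutrophils. Prg2, the eosinophil major basic protein, had 655 RPKM in wild-type input and 5.52 RPKM in Mettl3-deficient input, the most negative log2 ratio of all compared genes (−6.65, a 100.6-fold difference). Epx, the eosinophil peroxidase, had 63.0 and 0.27 RPKM, with 49, 4 and 2 reads in the Mettl3-deficient libraries. Prg3, a homologue of Prg2, had 57.5 and 0.83 RPKM. The eosinophil-associated ribonucleases Ear2, Ear6 and Ear1 had 21.3 to 32.9 RPKM in wild-type input against 0.17 to 0.34 RPKM. Ear2 was left with 7, 2 and 2 reads in the Mettl3-deficient libraries, Ear6 with 7, 0 and 0 and Ear1 with 4, 1 and 0, so that no Mettl3-deficient library held more than 7 reads of any of them. The Ear genes are near-identical copies, and how reads shared among them were counted is not given in the sources used here.

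Of 10 compared eosinophil, basophil and mast cell markers, 9 were 2-fold lower and none 2-fold higher, with a median log2 ratio of −4.31 beside −0.05 over all genes compared. The other 3 of the 9 were Hdc, the histidine decarboxylase that makes histamine, at 27.4 and 0.98 RPKM, Gata1, a transcription factor of the erythroid, megakaryocytic and eosinophil lineages, at 57.5 and 20.2 RPKM, and Prss34, a mast cell and basophil protease, at 32.9 and 14.1 RPKM. Mcpt8, a basophil protease, had 11.2 and 9.17 RPKM and was not 2-fold apart. The members with the most negative ratios were thus eosinophil granule genes, followed by Hdc at a log2 ratio of −3.84. The basophil protease genes on the list were closer to equal. Epx, Prg3, the Ear genes and Hdc reached the minimum of 10 RPKM through their wild-type columns alone. The minimum thus kept members that are high in wild type. With no minimum, the median over 18 members was −1.60.

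Markers of promyelocytes, the precursors of neutrophils, showed a similar size of difference. Of 9 compared, 6 were 2-fold lower (66.7%, beside 6.67% of all genes) and none higher, with a median log2 ratio of −3.47. Elane, neutrophil elastase, had 592 RPKM in wild-type against 36.8 RPKM in Mettl3-deficient input, Mpo, myeloperoxidase, 653 and 62.1 RPKM, and Ctsg, cathepsin G, 244 and 18.0 RPKM. Hp (haptoglobin), Fcnb (ficolin B) and Ms4a3 had log2 ratios of −3.96, −3.82 and −3.47. Of these, Hp and Ms4a3 reached the minimum of 10 RPKM through their wild-type columns alone. Prtn3, proteinase 3, which neighbours Elane in the genome, differed far less, with 503 and 326 RPKM, and Srgn (serglycin, the granule proteoglycan) and Igfbp4 were higher in Mettl3-deficient input by log2 ratios of 0.51 and 0.53.

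Among 14 compared genes of later neutrophil stages, 12 were 2-fold lower (85.7%, beside 6.67% of all genes) and none higher. Their median was −3.38, and Elane stands on this list too. Retnlg, a resistin-like secreted protein of neutrophils, had 176 and 3.802 RPKM, with 59, 110 and 0 reads in the Mettl3-deficient libraries. Mmp8, the neutrophil collagenase, had 59.1 and 1.40 RPKM, with 203, 50 and 10 reads, and Mmp9, gelatinase B, had 78.5 and 3.08 RPKM. Retnlg, Mmp8 and Mmp9 reached the minimum of 10 RPKM through their wild-type columns alone, so the minimum kept members that are high in wild type. Ltf, lactoferrin, had 635 and 58.5 RPKM. Csf3r, the G-CSF receptor, and Padi4, an enzyme that citrullinates histones, were the members not lower by 2-fold, with log2 ratios of −0.05 and 0.34. Other genes among the 15 lowest were Wfdc21 (79, 55 and 0 Mettl3-deficient reads), Lrg1 (97, 23 and 3), Slpi, a protease inhibitor (133, 40 and 2), Trem3, a myeloid receptor, and C3, the complement component (109, 77 and 65).

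Over 28 genes that were 2-fold lower and had recovered Mettl3-deficient reads, the library with most reads of the gene held a median of 56.4% of them, and the deepest library held 48.8% of all Mettl3-deficient input reads. For 2 genes 1 library held over 90%. Olfm4, olfactomedin 4 of neutrophil precursors, had 0, 60 and 0 reads, all from the library of 22083960 reads. The wild-type reads of these genes were too many to be recovered, so how evenly the wild-type libraries shared them is not known. In RNA from sorted pools, fewer cells of a type and less RNA of that type per cell cannot be told apart.

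The granulocyte markers went together with markers of some other lineages. Input levels were summed over all members found for both genotypes, compared or not. The 18 eosinophil, basophil and mast cell markers summed to 1009 RPKM in wild-type against 57.6 RPKM in Mettl3-deficient input. The 14 late neutrophil markers summed to 7047 and 1062 RPKM, and the 10 promyelocyte markers to 3015 and 1443 RPKM. The 32 compared members of these 3 lists hold 26 of the 420 lower genes (6.19%), and all 10 lists of other cell types hold 43 of them (10.2%), which leaves 377 lower genes on none of these lists. Whether these markers have a part in the other differences was not tested.

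Of 14 compared erythroid markers, 7 were 2-fold lower (50.0%, beside 6.67% of all genes) and none higher, with a median log2 ratio of −1.13. Car1, a carbonic anhydrase of early erythroid cells, had 188 and 21.8 RPKM. Klf1, the erythroid transcription factor, had 27.7 and 3.87 RPKM, and Rhd, of the Rh blood group, 31.1 and 5.28 RPKM. Klf1 and Rhd reached the minimum of 10 RPKM through their wild-type columns alone.

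Megakaryocyte and platelet markers were mixed. Of 14 compared members, 6 were 2-fold lower (42.9%, beside 6.67% of all genes) and 1 higher (7.14%, beside 2.38%). Mmrn1, multimerin 1 of platelet granules, had 62.6 and 6.09 RPKM, Pf4, platelet factor 4, 428 and 79.9 RPKM, Plek, pleckstrin, 39.2 and 12.8 RPKM, and Treml1, a platelet granule receptor, 30.5 and 10.2 RPKM. Mmrn1 reached the minimum of 10 RPKM through its wild-type columns alone. The member that was higher was Nfe2, the transcription factor of platelet formation, with 227 and 535 RPKM.

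Few genes of mature lymphocytes and macrophages reached the minimum. Of the T and NK cell markers, Cst7 (cystatin F) and Nkg7, both cytotoxic granule genes, were lower, at 32.7 and 4.18 RPKM and at 188 and 46.2 RPKM, while the chemokine Ccl5 was higher, at 4.94 and 24.0 RPKM. Of the monocyte and macrophage markers, Ly6c2 was lower at 90.7 and 6.15 RPKM and Cd68, a lysosomal membrane protein, higher at 20.5 and 61.6 RPKM. In the multipotent progenitor list, 2 of 4 compared members were lower (50.0%, beside 6.67% of all genes) and none higher. The 2 were Cd48, which the sort excludes, at 15.6 and 5.54 RPKM, and Cd52, at 77.1 and 13.7 RPKM. Cd48 reached the minimum of 10 RPKM through its wild-type columns alone. Cd34, not 2-fold apart, had 108 and 168 RPKM. Among B cell and antigen-presenting cell markers, Cd74, the invariant chain of MHC class II, was the only compared member 2-fold higher, with 337 and 902 RPKM.

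**Figure D2:**
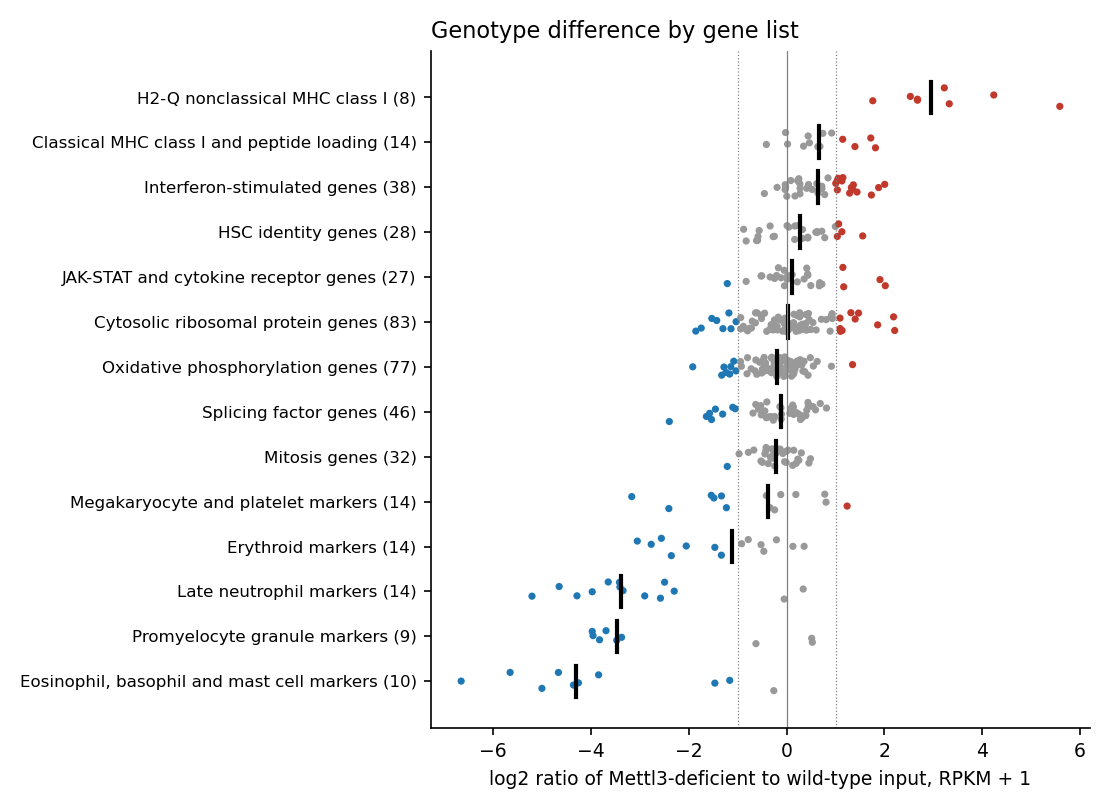
Log2 ratio of Mettl3-deficient to wild-type input for every compared member of 14 gene lists (points; red at least 2-fold higher, blue at least 2-fold lower), with the list's median as a black bar and the number of members in brackets; dotted lines mark 2-fold. The medians run from 2.95 for the H2-Q genes to −4.31 for the eosinophil, basophil and mast cell markers.

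Genes of HSC identity were present in both inputs. Procr, Slamf1 (CD150 of the sort) and Meis1 had 67.6 and 68.0, 24.2 and 37.8, and 55.4 and 62.2 RPKM in wild type and Mettl3-deficient input. Of 28 compared genes on the list, 4 were 2-fold higher (14.3%, beside 2.38% of all genes) and none 2-fold lower, with a median of 0.28. The 4 were Ly6a, which encodes the sort marker Sca1, at 118 and 348 RPKM, Mycn, a MYC family transcription factor, at 53.9 and 114 RPKM, and the interferon-induced membrane proteins Ifitm1, at 518 and 1135 RPKM, and Ifitm3, at 610 and 1253 RPKM. Ifitm1 and Ifitm3 also stand on the list of interferon-stimulated genes described below, so the 2 lists are not separate. Kit, the other positive marker of the sort, had 165 and 92.4 RPKM. After either scaling a further member of the HSC identity list passed 2-fold upward. Below the minimum level, Hoxb4, a homeobox transcription factor, was the member with recovered reads in both inputs, at 35, 35 and 30 reads in the wild-type libraries and 4, 7 and 1 in the Mettl3-deficient libraries, lower in every one also per depth.

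On the high side, genes of MHC class I stood out in number. Class I molecules present peptides on the cell surface together with beta-2 microglobulin, and the H2-Q genes are nonclassical members of the family on chromosome 17. Of the 9 listed H2-Q genes, 8 were compared and all 8 were 2-fold higher, beside 2.38% of all genes, with a median log2 ratio of 2.95. H2-Q2 had 0.28 RPKM in wild-type input, from 10, 7 and 10 reads in the 3 libraries, and 60.4 RPKM in Mettl3-deficient input, the highest ratio of all compared genes (log2 5.58). H2-Q4 had 3.30 and 79.9 RPKM. H2-Q2 and H2-Q4 reached the minimum of 10 RPKM through their Mettl3-deficient columns alone. For these genes the minimum thus kept members that are high in Mettl3-deficient cells. H2-Q8 had 42.6 RPKM in wild type, from 127, 136 and 126 reads, and 407 RPKM in Mettl3-deficient input, and H2-Q9 had 91.3 and 924 RPKM. The wild-type reads of H2-Q2 and H2-Q8 were thus spread evenly over the 3 wild-type libraries.

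H2-Q6 and H2-Q7, next to each other in the cluster, had 84.6 and 493 RPKM and 121 and 781 RPKM, H2-Q5 15.7 and 106 RPKM, and H2-Q1 57.8 and 198 RPKM. The H2-Q genes are near-identical copies of each other and of other class I genes. The length behind the deposited values of H2-Q8 is 94 bases, which is a small part of a class I transcript, and how the authors treated shared sequence is not given in the sources used here, so the split of reads among the members is uncertain. The difference was smaller in the m6A-tagged fraction, where the 8 genes had a median log2 ratio of 1.14, than in the unbound fraction, where it was 3.14. H2-Q1 was an exception, with 57.8 and 198 RPKM in the inputs but 52.7 and 46.5 RPKM in the unbound and 83.2 and 44.1 RPKM in the m6A-tagged fraction.

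Some classical class I genes and their partners were 2-fold higher too. H2-D1 had 1190 RPKM in wild-type against 4194 RPKM in Mettl3-deficient input, H2-K1 1143 and 3768 RPKM, and B2m, which encodes beta-2 microglobulin, 1478 and 3893 RPKM. Tap1, a subunit of the peptide transporter, had 65.0 and 145 RPKM. These were the 4 of 14 compared genes on the list that were 2-fold higher (28.6%, beside 2.38% of all genes), and none was 2-fold lower. The list had a median of 0.66, with 2 ratios below 0. Of all 22 compared genes whose symbols begin with H2-, 12 were 2-fold higher and none lower. Chromosome 17 as a whole had 5.49% of its compared genes 2-fold higher, and 2.33% (8 of 343) without the H2- genes, close to the 2.38% of all chromosomes.

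Of 38 compared interferon-stimulated genes, which cells switch on when interferon binds its receptor, 14 were 2-fold higher (36.8%, beside 2.38% of all genes) and none 2-fold lower. The other 24 did not pass 2-fold. Of the 38, 33 had ratios above 0, and the median was 0.65; both scalings gave counts of 14 and 0. Oasl1, an oligoadenylate synthetase-like inhibitor of translation, had 4.46 and 20.9 RPKM, Igtp, an immunity-related GTPase, 39.4 and 148 RPKM, Iigp1, a further such GTPase, 7.37 and 26.8 RPKM, and Lgals3bp, a secreted galectin-binding protein, 160 and 434 RPKM. Among these, Oasl1 and Iigp1 reached the minimum of 10 RPKM through their Mettl3-deficient columns alone. Isg15, a ubiquitin-like protein often used as a marker of the response, had 16.97 and 17.02 RPKM, so not every member differed. Tgtp1, a GTPase that is not on this list, was among the 15 highest genes, at 2.79 and 21.0 RPKM.

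Single libraries could be compared for a few of these genes. Cxcl10, a chemokine induced by interferon, had 41, 10 and 33 reads in the wild-type libraries and 289, 129 and 16 reads in the Mettl3-deficient libraries. Per length and depth these are 4.19, 1.14 and 4.43 RPKM against 36.5, 22.2 and 6.46 RPKM, so every Mettl3-deficient library was above every wild-type library. The difference, 2.25 ± 0.63 (log2, SE), had an adjusted p of 0.298 by limma over the 1659 genes with a mean of at least 10 recovered reads. Of these 1659 genes, 6.63% were higher and 10.5% lower in every Mettl3-deficient library. Below the minimum level, Ifit3 (80, 42 and 44 against 297, 80 and 38 reads) and Ifit3b (17, 22 and 13 against 148, 48 and 10 reads), both interferon-induced, were also higher in every Mettl3-deficient library, and Samd9l overlapped between the genotypes.

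The promoters of Cxcl10 and Igtp are printed because both genes were higher and both hold the interferon-stimulated response element, the DNA motif bound by factors that interferon activates. They are RefSeq sequences of GRCm38.p6, the mm10 build, 250 bases before to 50 bases after the start, read 5′ to 3′ on the gene's strand. Capitals mark matches to GAAANNGAAA on either strand. The windows are chr5:92348840-92349139 (minus strand) for Cxcl10 and chr11:58199306-58199605 (plus strand) for Igtp.
Cxcl10: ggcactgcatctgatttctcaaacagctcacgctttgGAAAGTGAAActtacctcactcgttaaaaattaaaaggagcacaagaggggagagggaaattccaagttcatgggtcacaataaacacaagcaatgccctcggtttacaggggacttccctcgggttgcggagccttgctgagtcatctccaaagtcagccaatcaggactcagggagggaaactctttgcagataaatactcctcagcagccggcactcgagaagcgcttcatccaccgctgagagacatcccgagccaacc
Igtp: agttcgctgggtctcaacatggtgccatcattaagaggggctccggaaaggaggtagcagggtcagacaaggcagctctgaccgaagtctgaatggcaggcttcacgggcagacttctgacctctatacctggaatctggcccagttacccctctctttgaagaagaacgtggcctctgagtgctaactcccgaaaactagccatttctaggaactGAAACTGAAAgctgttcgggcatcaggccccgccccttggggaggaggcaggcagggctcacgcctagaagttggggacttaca

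The motif was found in 14 of 32 promoters (43.8%) of the compared interferon-stimulated genes. It was found in 9.46% of the promoters of the 2-fold higher genes and in 3.56% of those of the 2-fold lower genes. The share was 3.19% for all genes compared and 3.44% for all 32851 promoters of that length. None of the 4 promoters of H2-Q genes held these letters in this window. Only these letters were searched, so a variant of the element with other letters would not have been counted. A match is a description of the sequence and not a binding site.

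Feedback genes of cytokine signalling were the highest members of their list. Cish, which encodes an inhibitor induced by STAT5, had 31.8 and 132 RPKM, a log2 ratio of 2.02, and Socs2, a further member of the family, had 14.3 and 56.4 RPKM, a log2 ratio of 1.91. Of 27 compared JAK-STAT and cytokine receptor genes, 4 were 2-fold higher (14.8%, beside 2.38% of all genes) and 1 lower (3.7%, beside 6.67%), with a median of 0.11. Csf2rb, the shared beta chain of the IL-3, IL-5 and GM-CSF receptors, was also 2-fold higher, at 10.3 and 24.4 RPKM. Csf2ra, the alpha chain of the GM-CSF receptor, was lower, at 43.6 and 18.2 RPKM. Socs1, a related suppressor, had 6.19 and 10.4 RPKM and was not 2-fold apart.

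The Cish promoter (chr9:107296409-107296708, plus strand) is printed because it holds 2 matches, in capitals, to TTCNNNGAA, the letters bound by STAT proteins, on either strand.
Cish: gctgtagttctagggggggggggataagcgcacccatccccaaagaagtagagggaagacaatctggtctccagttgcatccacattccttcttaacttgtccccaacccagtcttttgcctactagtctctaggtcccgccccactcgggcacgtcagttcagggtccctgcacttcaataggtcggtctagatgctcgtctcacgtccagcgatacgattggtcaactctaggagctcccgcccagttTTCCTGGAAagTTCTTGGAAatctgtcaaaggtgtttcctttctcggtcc
The letters occur in 8.3% of all promoters of that length and in 6.98% of those of all genes compared. Their share was 14.2% for the 2-fold higher genes and 3.8% for the 2-fold lower genes. Of the compared JAK-STAT and cytokine receptor genes, 2 of 26 promoters (7.69%) held them. A match can overlap one to GAAANNGAAA. On the low side, the promoter of Retnlg (chr16:48872358-48872657, plus strand) shows in capitals its match to TTNNGCAA on either strand, letters bound by C/EBP factors of granulocyte development.
Retnlg: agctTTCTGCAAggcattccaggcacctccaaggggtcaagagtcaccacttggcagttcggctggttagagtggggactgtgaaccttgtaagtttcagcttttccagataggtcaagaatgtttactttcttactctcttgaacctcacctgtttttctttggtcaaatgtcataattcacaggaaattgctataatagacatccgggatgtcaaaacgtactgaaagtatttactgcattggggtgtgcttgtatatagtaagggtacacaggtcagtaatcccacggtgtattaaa
These letters occur in 6 of 13 promoters (46.2%) of the compared late neutrophil markers. In the promyelocyte list they occur in 2 of 9 (22.2%), as in the eosinophil, basophil and mast cell list. Their share was 11.6% for all 2-fold lower genes, 8.62% for all genes compared and 10.8% for all promoters.

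Several of the highest genes belong to none of these groups. Rn45s, the 45S precursor of ribosomal RNA, had 15.5 RPKM in wild-type against 448 RPKM in Mettl3-deficient input. It was also higher in the unbound fraction, 51.3 against 1150 RPKM, and in the m6A-tagged fraction, 8.001 against 185 RPKM. Lars2, the mitochondrial leucyl-tRNA synthetase, was also higher in all 3 fractions, with 9.09 and 213 RPKM in the inputs, 2.52 and 317 RPKM unbound and 6.70 and 150 RPKM m6A-tagged, log2 ratios of 4.40, 6.50 and 4.29. None of the 20 compared cytosolic aminoacyl-tRNA synthetase genes was 2-fold apart. Gene totals do not show which part of Lars2 its reads came from. Whether the synthetase transcript itself differed was therefore not tested.

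Ccn3, a secreted matricellular protein, had 0.27 and 24.7 RPKM, but its wild-type reads were 0, 1 and 50, so the wild-type level rested on 1 library. Serpina3f and Serpina3g, neighbouring serine protease inhibitors that are close copies, had 42.9 and 316 RPKM and 270 and 1253 RPKM. Gem, a small GTPase, had 5.47 and 37.9 RPKM and Ccdc102a 3.48 and 25.4 RPKM. Among the 15 lowest genes, Ybx3, a cold-shock domain protein that binds RNA, had 218 and 6.24 RPKM in the inputs, 99.96 and 10.2 RPKM unbound and 154 and 45.9 RPKM m6A-tagged.

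Of 46 compared splicing factor genes, 8 were lower (17.4%, beside 6.67% of all genes) and none higher, while the median was −0.11 in the deposited values and 0.02 after median-ratio scaling, which left 6 lower. Hnrnpl, a splicing regulator, had 68.2 and 12.1 RPKM, U2af2, which recognises the polypyrimidine tract, 64.2 and 19.9 RPKM, Sf3a2, of the U2 particle, 76.7 and 25.1 RPKM, and Srsf1, a serine and arginine-rich factor, 42.6 and 14.1 RPKM. The share of lower genes in this list was above that of all genes, though no test was made of it. Of 19 compared genes of mRNA decay, 3 were lower (15.8%, beside 6.67%) and none higher, and 2 were lower after median-ratio scaling: Zfp36l2, which binds AU-rich elements, at 61.7 and 14.4 RPKM, Cnot11, at 19.2 and 4.00 RPKM, and Cnot3, at 32.9 and 15.03 RPKM, both subunits of the CCR4-NOT deadenylase.

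Ribosomal protein genes, which encode parts of one particle, went both ways. Of 83 compared cytosolic members, 10 were 2-fold higher (beside 2.38% of all genes) and 8 lower (9.64%, beside 6.67%), and the median was 0.03; after median-ratio scaling the counts were 15 and 7. Rps29 had 12.7 and 62.3 RPKM, Rps16 18.7 and 88.9 RPKM and Rpl11 82.5 and 302 RPKM, while Rps15a had 31.2 and 7.89 RPKM. Reads of these genes can be shared with their many processed pseudogenes. Of 77 oxidative phosphorylation genes, 8 were lower (10.4%, beside 6.67% of all genes) and 1 higher (1.3%, beside 2.38%), with a median of −0.19. After median-ratio scaling 6 were lower and 2 higher. Ndufb4 (13.1 and 2.73 RPKM, with 20, 36 and 12 reads in the Mettl3-deficient libraries), Ndufs3 (39.9 and 15.9 RPKM), of complex I, and Uqcr11 (108 and 42.4 RPKM), of complex III, were lower, and Atp5g2, a proton channel subunit of ATP synthase, was higher (4.04 and 11.8 RPKM).

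Lists of growth and division had few members 2-fold apart, at shares to be read beside 2.38% higher and 6.67% lower of all genes. In MYC target genes, 1 of 42 was higher and 1 lower, in DNA replication genes 0 of 36 higher and 2 lower, in mitosis genes 0 of 32 higher and 1 lower, and in G1 cyclins, kinases and inhibitors 0 of 12 higher and 1 lower. Of the mitosis genes 23 of 32 had ratios below 0, with a median of −0.21, and of the G1 genes 9 of 12, with a median of −0.30. None of 34 proteasome genes and 18 heat shock and chaperone genes was 2-fold apart. Odc1, the ornithine decarboxylase and a MYC target, was the lower MYC target, at 93.7 and 35.8 RPKM, and Slc19a1, a folate carrier, the higher, at 30.8 and 71.8 RPKM. Immediate early genes divided, with 4 of 23 higher and 4 lower, or 3 lower after either scaling: Fos, an AP-1 subunit, had 57.0 and 179 RPKM, whereas Cebpb, a C/EBP factor, had 17.02 and 4.35 RPKM. Myc itself had 117 and 98.0 RPKM.

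Replication-dependent histone genes, whose transcripts end in a stem-loop in place of a poly(A) tail, were mostly below the minimum level, which made the reads of single libraries recoverable. Of the 60 genes, 25 had a mean of at least 10 recovered reads over the 6 input libraries. Several passed this minimum through their wild-type reads alone, so the genes are described singly and not by a count. H2ac18 was higher in every Mettl3-deficient library, at 8, 13 and 2 reads against 23, 31 and 7. A set of H2A genes of the main histone cluster was lower in every one. H2ac10 had 72, 64 and 63 reads in the wild-type libraries and 2, 1 and 0 in the Mettl3-deficient libraries. H2ac12 had 143, 112 and 119 against 10, 18 and 2 reads, H2ac4 160, 120 and 123 against 15, 18 and 1, and H2ac11 176, 149 and 128 against 14, 29 and 3. Per length and depth, H2ac10 had 4.92, 4.88 and 5.66 RPKM in the wild-type libraries against 0.17, 0.12 and 0 RPKM.

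By limma over the 1659 genes, with 1 RPKM added per library, 0 genes were called higher and 1 (0.0603%) lower at an adjusted p of 0.05, and 165 had an unadjusted p under 0.05. The gene called was H2ac10, with a log2 difference of −2.49 ± 0.29 (SE) and an adjusted p of 0.0307, lower in 3 of 3 libraries. It passed the read minimum of the fit through its wild-type reads alone, with 2, 1 and 0 reads in the Mettl3-deficient libraries. Leaving out any 1 library brought its adjusted p to between 0.0551 and 0.283, and adding 0.1 RPKM in place of 1 to 0.0504, so the call needed all 6 libraries. H2ac12 and H2ac4 had adjusted p-values of 0.0719 by limma. The H2A genes are near-identical in sequence, so these are not separate measurements where their reads were shared. Among the 6 histone genes of the 6295 compared, H2ac23 (30.9 and 2.97 RPKM) and H2ac13 (10.8 and 1.70 RPKM) were 2-fold lower and none was higher. H2bc8 had 13.1 and 25.4 RPKM, and 1 of the 6 was 2-fold higher after median-ratio scaling.

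**Figure D3:**
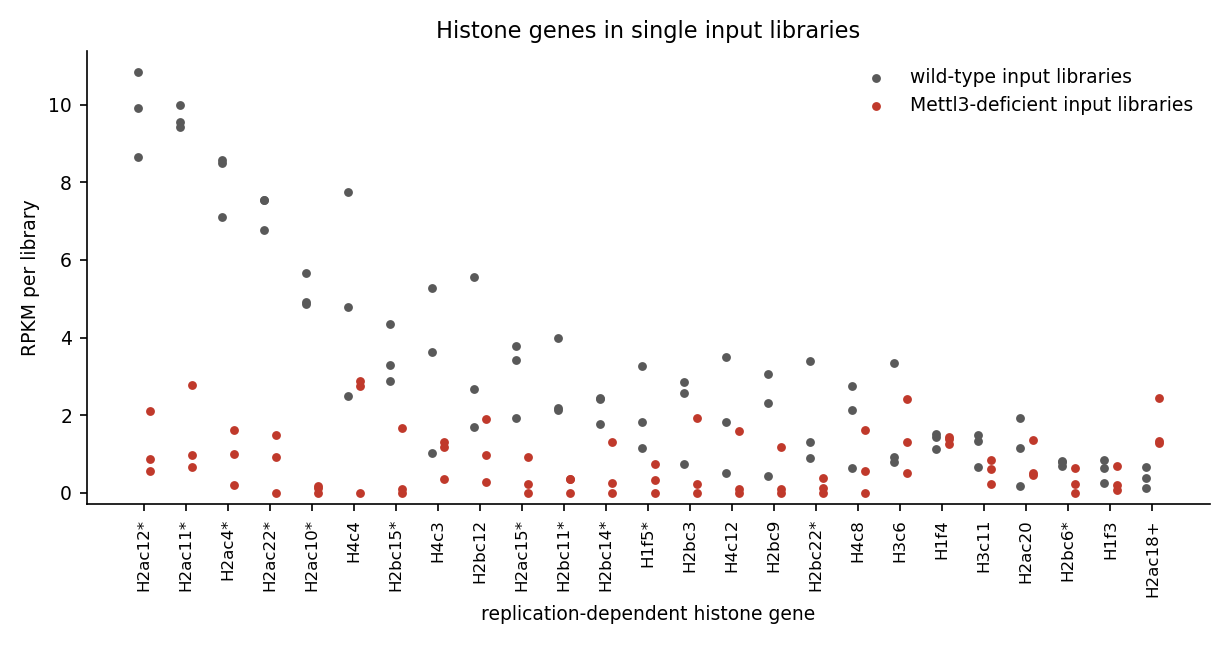
RPKM in each input library of the 25 replication-dependent histone genes with a mean of at least 10 recovered reads (grey, 3 wild-type libraries; red, 3 Mettl3-deficient libraries), ordered by wild-type mean; an asterisk marks genes lower in every Mettl3-deficient library and a plus sign the gene higher in every one. The 4 H2A genes at the left lie between 6.77 and 10.9 RPKM in wild type and at or below 2.78 RPKM in Mettl3-deficient libraries.

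For 25 of the compared genes, reads were recovered in both inputs. In 5 all Mettl3-deficient libraries lay above all wild-type libraries, in 2 below, and in 18 the libraries overlapped; of all 1659 genes 6.63% lay above and 10.5% below. The 2 below were the microRNA loci Mir762, at 148, 90 and 75 against 40, 23 and 11 reads, and Mir1901, at 72, 37 and 71 against 18, 21 and 6 reads. None of the 25 was called by limma, where the smallest adjusted p among them was 0.132, for Mir762, and 6 had an unadjusted p under 0.05. The spread between libraries was wide at such counts: over genes with a mean of 10 to 30 reads, the median coefficient of variation was 97.8% among wild-type and 90.6% among Mettl3-deficient libraries, and over genes with 100 reads or more it was 34.7% and 39.2%. Snora31, 2-fold higher by its mean, had 37, 144 and 0 reads in the Mettl3-deficient libraries against 57, 40 and 21, and its ratio therefore came from the library of 22083960 reads.

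The unbound and m6A-tagged fractions of the same RNA gave a further pair of columns for each genotype. Of the 150 genes 2-fold higher in input, 116 (77.3%) were 2-fold higher in the unbound fraction, beside 19.7% of all genes, and 57 (38.0%) in the m6A-tagged fraction, beside 6.02%. Of the 420 lower genes, 280 (66.7%) were 2-fold lower in the unbound fraction, beside 22.7%, and 236 (56.2%) in the m6A-tagged fraction, beside 7.15%. In both fractions at once, 44 of the higher (29.3%) and 158 of the lower genes (37.6%) were 2-fold apart in the same direction, beside 1.21% of all genes 2-fold higher and 3.29% 2-fold lower in both. Across the 6295 genes, the log2 ratios of input and unbound correlated with Pearson's r 0.55 and Spearman's rho 0.49, and those of input and m6A-tagged with 0.64 and 0.47; the fractions come from the same RNA pools, and genes are not independent.

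Of the 26 granulocyte markers 2-fold lower in input, 25 were 2-fold lower in the unbound and 24 in the m6A-tagged fraction. Prss34 was in neither, with log2 ratios of −0.08 and −0.22, and Gata1 had −1.92 unbound and −0.11 m6A-tagged. Prg2 had 1067 and 24.3 RPKM unbound and 664 and 11.5 RPKM m6A-tagged, Epx 51.8 and 0.08 RPKM and 45.6 and 0.05 RPKM, and Retnlg 235 and 2.91 RPKM and 238 and 5.86 RPKM in wild type and Mettl3-deficient cells. Cish had 8.93 and 79.4 RPKM unbound and 55.2 and 148 RPKM m6A-tagged, and Socs2 1.75 and 19.4 RPKM and 25.8 and 63.9 RPKM, so both were 2-fold higher in every fraction. Some genes did not keep their direction. Arf6, a small GTPase, had 22.03 and 6.89 RPKM in the inputs but 2.30 and 11.7 RPKM unbound. In neither other fraction did H2-Q1, H2-T23 (201 and 443 RPKM in the inputs) or Cenpv (37.9 and 15.4 RPKM) share the direction of the input; these genes were named after their values were seen.

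**Figure D4:**
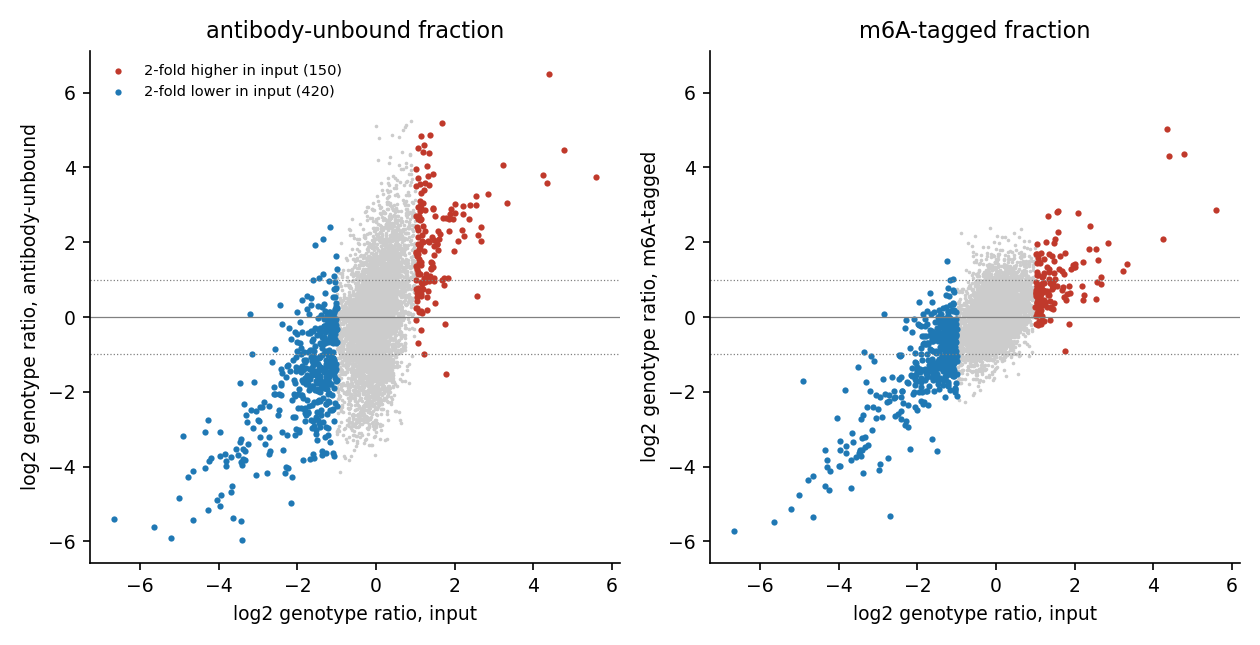
Log2 ratio of Mettl3-deficient to wild-type level in the antibody-unbound (left) and m6A-tagged (right) fraction against that in the input for 6295 genes; red and blue points are the 150 and 420 genes 2-fold higher and lower in input, and dotted lines mark 2-fold. Of the red points, 116 lie above the upper dotted line on the left and 57 on the right.

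Genes were also ordered by how strongly the antibody had enriched them in wild type, as the log2 ratio of the m6A-tagged to the unbound level. From the lowest to the highest quintile of 1259 genes each, the median input ratio went from −0.19 over −0.14, −0.05 and 0.01 to 0.15. In the lowest quintile 1.59% of genes passed 2-fold upward in Mettl3-deficient input and 8.58% downward, and in the highest quintile 5.0% and 4.92%. The wild-type input is not part of this ordering, but its 3 fractions come from the same cells. By genomic span, the shortest quintile (median 3.37 kb) had 5.25% of genes higher and 8.59% lower, and the longest (median 60.8 kb) 1.43% and 6.92%, with medians of −0.05 and −0.08.

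**Figure D5:**
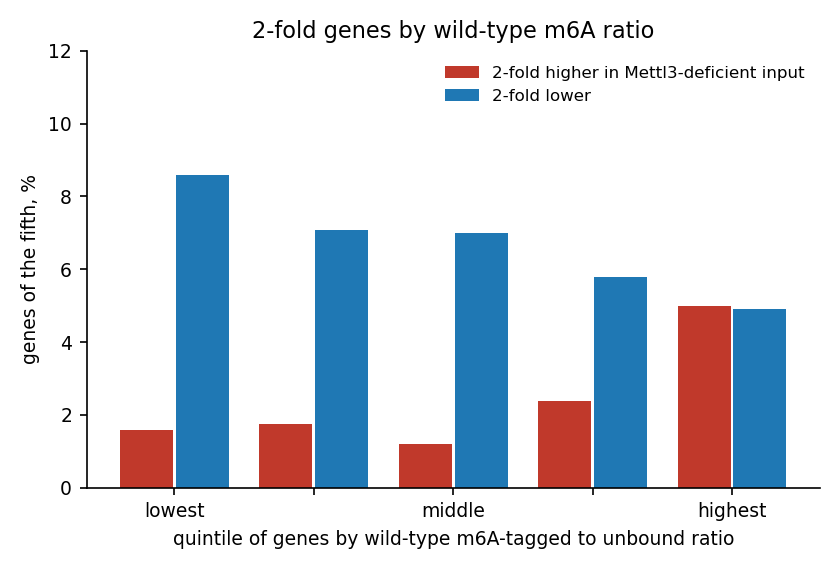
Share of genes 2-fold higher (red) and 2-fold lower (blue) in Mettl3-deficient input, in percent, for quintiles of 1259 genes ordered by their wild-type m6A-tagged to unbound ratio. The red bars run from 1.59% in the lowest to 5.0% in the highest quintile, the blue bars from 8.58% to 4.92%.

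Genes near the targeted locus on chromosome 14 were examined separately. Of the 10 compared genes nearest to Mettl3, only Ear6, 441 kb away and an eosinophil gene, was 2-fold apart. The nearest neighbours Tox4 and Rab2b had 20.2 and 20.8 RPKM and 10.7 and 13.3 RPKM. Pnp, at 1351 kb, had 14.8 and 27.9 RPKM, a log2 ratio of 0.87. Within 5 Mb, 58 genes were compared, of which 1 was higher and 6 lower, with a median of 0.04, beside 2.38% higher and 6.67% lower of all 6295. Among RNA classes, to be read beside the same shares, 10 of 81 long noncoding RNAs and 3 of 11 microRNA genes were lower and none higher. Of the host genes of small nucleolar RNAs, 4 of 13 compared were lower (30.8%, beside 6.67%): Snhg6 (91.3 and 30.2 RPKM), Snhg1 (17.9 and 7.14 RPKM), Snhg8 (40.8 and 17.1 RPKM) and Snhg12 (26.7 and 11.3 RPKM).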

How the data were processed

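Per the labels' protocols, Smart-seq2 libraries were sequenced with paired reads of 150 bases. The submitters' processing notes name the mm10 build, Picard and edgeR, without roles or versions; aligner, counter and annotation: not given in the sources used here. Deposited files hold RPKM, 1 column per genotype and fraction, which the values show to be the authors' mean over 3 libraries after 1 read was added to each gene in each library. All 6 columns were used. In the Mettl3-deficient table, 11 trailing rows without values were left out, and 25 names turned into dates were taken from the wild-type table by gene identifier. RefSeq (GRCm38.p6) matched 22959 of 23038 identifiers.

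From these columns, log2((Mettl3-deficient + 1)/(wild-type + 1)) was computed for genes whose 6 columns averaged 10 RPKM or more, and a 2-fold difference was called; with 1 mean per group there is no test. RPKM of low genes is a sum of whole reads over 3 known depths and a gene length. Library totals, lengths (12886 genes) and reads per library (99.0% of 23664 input values tried) were therefore solved from the decimals. For the 6986 genes without reads in any column, every length came out whole within 0.005 bases. The solver was tested on simulated data. limma 3.58.1 (R 4.3.3) was fitted on log2(RPKM + 1) per library over the 1659 genes with a mean of 10 or more recovered reads, 3 libraries against 3, with Benjamini-Hochberg adjustment. This fit covers mostly genes below the 10 RPKM minimum. Python 3.11.15, pandas 2.3.3 and numpy 2.4.6 were used otherwise.

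Named genes are the 15 highest and 15 lowest ratios, the 3 highest and 3 lowest at 100 RPKM or more, up to 4 compared members with the largest ratios in each list, all members of short lists, the writer genes and the 10 genes nearest to Mettl3; sort markers and others outside this were named for what they are. The members and lists were chosen with earlier results of these data known. Alternatives were the added RPKM, the minimum, the fold, scaling of the columns and leaving out libraries. Some list members are not reported here.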

Additional observations from a re-analysis of the deposited data

How the results depend on the processing

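With a minimum mean of 50 RPKM, 70 genes were 2-fold higher and 126 lower; with no minimum, 283 and 1224; and at a fold of 4, 23 and 110. The other settings (0.1 or 5 RPKM added, the minimum over the 2 inputs alone, median-ratio and upper-quartile scaling) kept both counts within 1.5-fold of 150 and 420. The median log2 ratio of the eosinophil, basophil and mast cell markers was −6.10 with 0.1 RPKM added, −2.45 with 5 RPKM added and −1.60 with no minimum, and with no minimum those of the monocyte and macrophage markers and of the B cell and antigen-presenting cell markers were −0.12 and −0.42. Of 121 named genes 2-fold apart, 103 stayed so with 5 RPKM added, 118 after median-ratio and 119 after upper-quartile scaling, and none reversed in any setting. For limma on recovered reads, 0 genes were called lower with 0.1 RPKM added per library (chosen after seeing the data), and 0 higher and 0 lower each time a library was left out. For the 25 compared genes with recovered reads, leaving out each library gave 1 to 2 genes 2-fold higher and 3 to 6 lower, beside 2 and 3 with all libraries. Without the wild-type library of 33408154 reads the lower count was 5, without the Mettl3-deficient library of 22083960 reads the counts were 1 and 6, and without the wild-type library of 28332765 reads the higher count was 1. No paired analysis was possible because the columns are means of 3 libraries and the recovered libraries carry no replicate number. The Mettl3-deficient input of 9421766 reads limits what could be seen of low genes in that library.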

Other observations

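The counts that follow stand beside 2.38% of all compared genes 2-fold higher and 6.67% lower. Among lists not described above, genes that sense or edit double-stranded RNA had 2 of 11 compared members 2-fold higher, Zbp1, a sensor of Z-form nucleic acid, at 10.2 and 22.1 RPKM in wild type and Mettl3-deficient input, and Oas1a, an oligoadenylate synthetase, at 11.9 and 24.9 RPKM. None was lower and all 11 ratios were above 0 in the deposited values; 5 of the 11 also stand on the interferon list. Of 5 compared genes of the Max network, Mycn was higher, and Max, the shared partner, had 21.3 and 13.8 RPKM. Of 9 compared p53 target genes, Ei24 was lower at 77.3 and 36.5 RPKM and none was higher, but after either scaling none was lower and 1 was higher. None of 6 compared BCL2 family genes was 2-fold apart. In niche homing and adhesion genes, 1 of 17 was higher, Jam3, at 9.03 and 19.6 RPKM, or 3 after either scaling; Esam, an endothelial adhesion molecule of HSCs, had 153 and 307 RPKM and a log2 ratio of 1.00, just under the limit.

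Mitochondrial ribosomal protein genes had 1 of 78 higher and 1 lower, lysosome and proton pump genes 0 of 35 higher and 1 lower, and genes of the integrated stress response 0 of 23 higher and 1 lower, Ddit3, at 54.7 and 26.6 RPKM. After either scaling the last of these lists had 1 higher and 0 lower. Of 42 translation initiation and elongation factor genes, 1 was higher and 3 lower, among them Pabpc1, the poly(A)-binding protein, at 165 and 54.5 RPKM. Of 20 glycolysis genes, Pgam1, at 12.3 and 26.4 RPKM, was higher and none was lower. Of 3 compared endothelial and stromal markers, Pecam1 was higher, with a log2 ratio of 1.38. Zinc finger protein genes had 3 of 54 lower and none higher, and small nucleolar RNA genes 1 of 22 higher and 1 lower. After median-ratio scaling, the mitochondrial ribosomal, translation factor, glycolysis and small nucleolar RNA lists each had 2 members higher. Among genes chosen after their values were seen, Actb, the beta-actin often used as a reference, had 1198 and 3829 RPKM, a log2 ratio of 1.68.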
